A study of Mus musculus with 16 samples.

Results

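The Rin family genes *Rin1*, *Rin2* and *Rin3*, the exchange factor gene *Rabgef1* and the 3 genes of the small GTPase Rab5, *Rab5a*, *Rab5b* and *Rab5c*, were followed in mouse keratinocytes with and without integrin α3β1. They were found by symbol, and all 7 were among the 14474 genes of the counts table. *Rin3* led to the choice of this family, because it was among the genes with the largest difference between the lines in vehicle-treated cells. Differences between the lines in vehicle are therefore given for all 7 genes as a description, with no test.

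Rab5 is the GTPase of the early endosome. When loaded with GTP it recruits tethers and a lipid kinase to incoming vesicles, so that cargo taken up from the cell surface, integrins and growth factor receptors included, fuses into early endosomes and is then recycled or degraded. Rin1, Rin2, Rin3 and Rabex-5, the product of *Rabgef1*, share a VPS9 domain, which loads Rab5 with GTP. Rin proteins also bind Ras through a Ras association domain, and Rin1 activates the Abl kinases.

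The cells were an immortalized mouse keratinocyte line without the α3 integrin subunit (MKα3− cells) and the same cells with human α3 restored (MKα3+ cells). Both were grown on collagen-coated dishes in low-calcium medium at 33 °C, and received laminin-332 (LN332), a ligand of α3β1, at 0.02 mg/mL or the same volume of vehicle for 16 to 24 h. Each of the 4 groups held 4 replicates of poly(A) RNA-seq. The sources used here do not give the passage or the clonal origin of the lines, and the absence of α3 cannot be told apart from any other difference between 2 cell lines. The study describes its in vitro data points as experimental replicates, and the sources used here do not say whether each library came from a separate culture, so p-values measure the spread between these samples, which may be technical.

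Total counts were between 21735708 and 29338370 per library. All 10 keratinocyte markers examined were in the table, at a summed level of 9453 to 20370 CPM (normalized counts relative to library size). The 4 fibroblast markers found of 7 summed to 11.4 to 39.4 CPM, the 4 endothelial markers to 3.33 to 6.45 CPM, and the 1 melanocyte marker found of 5 was at 0.828 to 3.94 CPM. Mouse *Itga3* had 4530 to 8830 counts in every library, MKα3− cells included, and did not separate the lines, in which the restored α3 is human.

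*Rin3* was nearly silent in MKα3− cells and well expressed in MKα3+ cells. This gene, which encodes a Rin protein known from mast cells among others, lies on chromosome 12 from 102282840 to 102390854 (plus strand, GRCm38.p6, the mm10 assembly). In vehicle-treated MKα3− cells it had 16 to 52 counts per library, or 0.561, 0.678, 0.921 and 1.80 CPM in replicates 1 to 4. In vehicle-treated MKα3+ cells it had 1129 to 1390 counts, or 45.6, 45.3, 51.0 and 50.0 CPM. The groups did not overlap, as was so for 32.9% of all genes in vehicle, and the fitted log2 fold change of MKα3+ over MKα3− cells (log2FC) was 5.72 ± 0.26 (SE), or 52.7-fold. Scaled by exon length, 5.04% of the 13194 genes with a known length were below *Rin3* in vehicle-treated MKα3− cells and 51.4% in vehicle-treated MKα3+ cells.

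*Rin3* was named for its difference in vehicle, but earlier results of these data were known when the members were chosen. The fit also estimated the spread of each gene over all 16 libraries. The LN332-treated libraries come from the same 2 lines. A difference in them is thus a repeat over libraries of these lines, and its p-values are no independent support for the difference in *Rin3*. In them *Rin3* was at 0.970, 0.636, 1.33 and 1.17 CPM in MKα3− cells and at 47.5, 47.9, 53.4 and 49.7 CPM in MKα3+ cells. Every MKα3+ library was again above every MKα3− library. The log2FC was 5.63 ± 0.26 (SE, limma-voom adjusted p = 1.15e-10), or 49.6-fold, and a two-sided exact permutation test gave p = 0.0286, the smallest p that 4 libraries against 4 allow. With a library left out, the log2FC was between 5.40 and 5.78.

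In bulk RNA, fewer cells of a type and less RNA per cell cannot be told apart, and *Rin3* is also expressed by blood cells. The immune and mast cell markers found, 6 of 8, summed to 59.4 to 108 CPM in vehicle-treated MKα3− cells and 93.9 to 158 CPM in vehicle-treated MKα3+ cells, and to 60.1 to 96.5 and 89.3 to 159 CPM in LN332, so that the summed levels of the lines overlapped. The sum is made up mostly of *Cd74*, *Cd68* and *Csf1r*. Of the 6 markers, *Csf1r*, a receptor of macrophages, and *Cd74*, a chaperone of antigen presentation, were called as higher in MKα3+ cells in both media. The log2FC of *Csf1r* was 1.51 ± 0.33 (SE, limma-voom adjusted p = 0.00256) in vehicle and 0.89 ± 0.31 (SE, limma-voom adjusted p = 0.036) in LN332, and that of *Cd74* was 0.80 ± 0.20 (SE, limma-voom adjusted p = 0.00551) and 0.83 ± 0.20 (SE, limma-voom adjusted p = 0.00428). *Ptprc* (CD45, the pan-leukocyte marker), *Fcer1g* and *Tyrobp* were low and did not pass the test in either medium, with vehicle means of 0.555, 1.33 and 0.573 CPM in MKα3− cells and 2.22, 5.40 and 2.57 CPM in MKα3+ cells. Their vehicle log2FC values were 1.69 ± 0.64, 1.73 ± 0.70 and 1.78 ± 0.80 (SE, limma-voom adjusted p = 0.059, 0.0742 and 0.11). In LN332 these values were 0.62, 0.91 and 1.07. *Fcer1g* did not overlap between the lines in vehicle, beside 32.9% of all genes. *Cd68* had a log2FC of 0.12 ± 0.26 (SE, limma-voom adjusted p = 0.768) in vehicle, and the mast cell markers *Kit* and *Cpa3* were not among the measured genes. Their part in the difference in *Rin3* was not tested.

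A stretch of 250 bases before one of the 2 start sites that RefSeq lists for *Rin3* is shown because *Rin3* is the member with the largest difference (chr12:102283391-102283640, plus strand, GRCm38.p6). The stretch at the other start site, which lies further upstream, overlaps annotated exon sequence and is not shown. The stretch printed here lies inside the span of *Rin3* given above. Capitals mark a GC box (GGGCGG), searched on both strands.
Rin3: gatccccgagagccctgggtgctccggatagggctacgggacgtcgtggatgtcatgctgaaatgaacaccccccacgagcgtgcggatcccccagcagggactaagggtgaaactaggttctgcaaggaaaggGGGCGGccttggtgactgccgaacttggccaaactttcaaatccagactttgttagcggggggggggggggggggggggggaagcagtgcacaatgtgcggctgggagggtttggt
A GC box occurs in 32.7% of the 32851 mouse promoter windows of this length. The sequence holds 12 CG dinucleotides, more than 66.5% of those windows, and its GC content is 62%. Neither strand held the letters of an AP-1 site (TGANTCA, in 6.75% of windows), a TEAD site (GGAATG, in 12.6%), a TATA box (TATAAA, in 12.4%) or an E-box (CACGTG, in 6.02%). The upstream stretch that is not shown has 26 bases in annotated exons. It holds 23 CG dinucleotides, more than 86.7% of windows, and 2 GC boxes, at a GC content of 71.2%.

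*Rin2* showed the opposite pattern, with levels in MKα3+ cells less than those in MKα3− cells in every library. *Rin2* encodes a Rin protein that acts on Rab5 in endothelial and epithelial adhesion, and lies on chromosome 2 from 145771727 to 145887616 (plus strand). In vehicle it was at 42.4, 31.4, 37.3 and 36.6 CPM in MKα3− cells and at 18.6, 15.9, 20.5 and 17.3 CPM in MKα3+ cells, a log2FC of -1.03 ± 0.13 (SE). In LN332 it was at 47.5, 40.1, 55.5 and 41.6 CPM in MKα3− cells and at 23.8, 18.1, 20.9 and 20.3 CPM in MKα3+ cells. The groups did not overlap in either medium. In LN332 the log2FC was -1.15 ± 0.13 (SE, limma-voom adjusted p = 2.47e-06), and a two-sided exact permutation test gave p = 0.0286.

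*Rin1*, the most abundant Rin transcript, did not pass the test between the lines. It encodes the Rin protein that links Ras to Rab5 and to Abl, and lies on chromosome 19 from 5049999 to 5057071 (plus strand). In LN332 it was at 149, 129, 248 and 166 CPM in MKα3− cells and at 150, 200, 176 and 193 CPM in MKα3+ cells. The MKα3+ libraries fell within the range of the MKα3− libraries. The log2FC was 0.09 ± 0.17 (SE, limma-voom adjusted p = 0.724), with a 95% interval from -0.27 to 0.46. In vehicle it was at 235, 162, 230 and 154 CPM in MKα3− cells and at 162, 184, 176 and 173 CPM in MKα3+ cells, a log2FC of -0.14 ± 0.17 (SE). Replicates 1 and 3 of vehicle-treated MKα3− cells and replicate 3 of LN332-treated MKα3− cells were high, and the coefficient of variation was 22.1% and 30.2% in these groups, against 5.13% and 12.4% in vehicle- and LN332-treated MKα3+ cells.

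**Figure D1:**
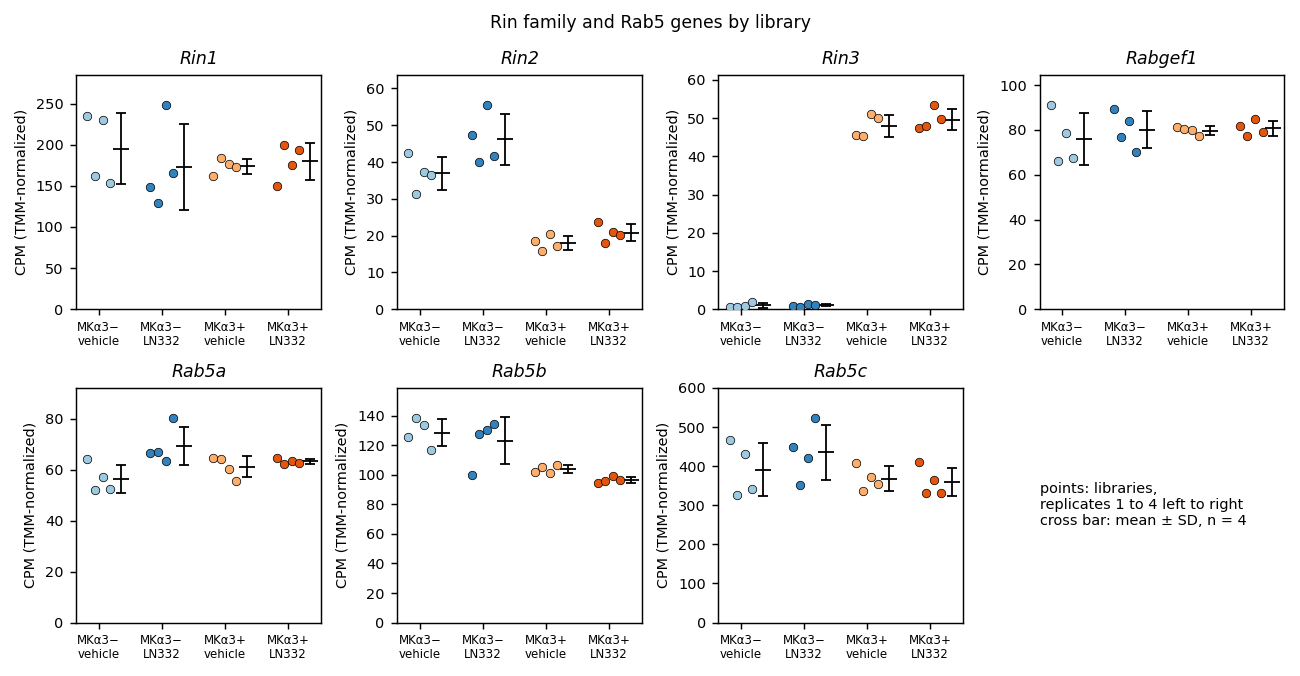
Levels of the 7 genes in CPM (vertical axes, each from 0) in the 16 libraries, with points for replicates 1 to 4 of each group and the mean ± SD beside them. *Rin3* lies between 0.561 and 1.80 CPM in MKα3− cells and between 45.3 and 53.4 CPM in MKα3+ cells, *Rin2* is lower in MKα3+ cells, and of the other genes only *Rab5b* has no overlap between the lines within each medium.

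Per length of exon, the makeup of the Rin family differed between the lines while its sum overlapped between them. *Rin1* was at 40.5 ± 8.93 CPM per kb in MKα3− cells with vehicle (SD, n = 4) and 36.0 ± 1.85 CPM per kb in vehicle-treated MKα3+ cells. *Rin2* was at 3.28 ± 0.400 and 1.60 ± 0.173 CPM per kb, and *Rin3* at 0.145 ± 0.0817 and 7.02 ± 0.435 CPM per kb. *Rin3* was thus the lowest Rin transcript in MKα3− cells and stood between *Rin1* and *Rin2* in MKα3+ cells. Of the family's summed level, *Rin3* made up 0.358% in vehicle-treated MKα3− cells and 15.7% in vehicle-treated MKα3+ cells, and *Rin2* made up 7.60% and 3.60%. The sum was 43.9 ± 9.18 and 44.7 ± 1.90 CPM per kb in these groups, and 40.2 ± 11.4 and 46.4 ± 4.45 CPM per kb in LN332-treated MKα3− and MKα3+ cells. Because merged exons make *Rin2* long, its share rose to 15.6% in MKα3− and 7.10% in MKα3+ cells when the longest coding transcript gave the length, and that of *Rin3* was then 0.532% and 22.5%, with the order of the genes unchanged.

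**Figure D2:**
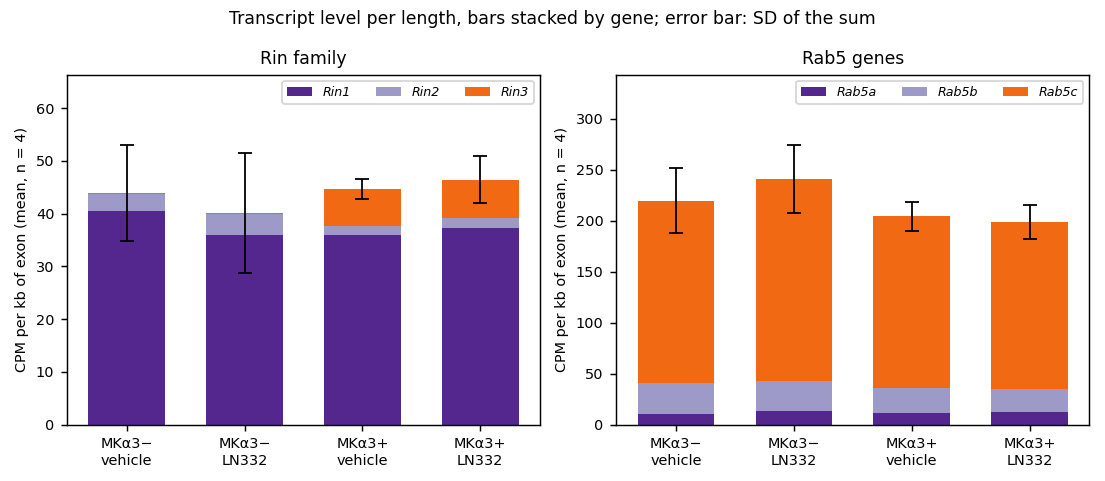
Mean level per kb of exon (vertical axes, n = 4 libraries) of the 3 Rin genes, left, and the 3 Rab5 genes, right, stacked by gene for each group, with the SD of the sum as the error bar. *Rin3* makes up 0.358% of the Rin sum in vehicle-treated MKα3− cells and 15.7% in vehicle-treated MKα3+ cells, and *Rab5c* makes up most of the Rab5 sum in every group.

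*Rabgef1* encodes Rabex-5, which works in a complex with the Rab5 effector Rabaptin-5, and lies on chromosome 5 from 130171819 to 130214342 (plus strand). In LN332 it was at 89.2, 76.9, 84.1 and 70.2 CPM in MKα3− cells and at 81.9, 77.4, 84.9 and 79.0 CPM in MKα3+ cells. The groups overlapped, with a log2FC of 0.02 ± 0.10 (SE, limma-voom adjusted p = 0.920) and a 95% interval from -0.19 to 0.23. In vehicle the log2FC was 0.08 ± 0.10 (SE).

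Among the Rab5 genes, whose proteins are close relatives with largely shared tasks, *Rab5c* was the most abundant and *Rab5b* was the only one whose groups did not overlap between the lines in LN332. *Rab5b* (chromosome 10, 128677170 to 128696284, minus strand) was at 99.8, 128, 131 and 134 CPM in LN332-treated MKα3− cells and at 94.3, 96.1, 99.3 and 96.3 CPM in LN332-treated MKα3+ cells. The lowest MKα3− library, replicate 1, was barely above the highest MKα3+ library. The log2FC was -0.34 ± 0.09 (SE, limma-voom adjusted p = 0.00729), a fold of 0.789, which is under the minimum absolute log2FC of 0.5 required here for a call. In vehicle *Rab5b* was at 126, 138, 134 and 117 CPM in MKα3− cells and at 102, 106, 102 and 106 CPM in MKα3+ cells, again without overlap, with a log2FC of -0.30 ± 0.09 (SE).

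*Rab5a* and *Rab5c* overlapped between the lines in both media. *Rab5a* (chromosome 17, 53479234 to 53507678, plus strand) was at 66.7, 67.0, 63.4 and 80.2 CPM in LN332-treated MKα3− cells and at 64.7, 62.3, 63.3 and 62.7 CPM in LN332-treated MKα3+ cells, a log2FC of -0.12 ± 0.09 (SE, limma-voom adjusted p = 0.313). *Rab5c* (chromosome 11, 100715003 to 100738215, minus strand) was at 448, 352, 421 and 522 CPM in LN332-treated MKα3− cells and at 409, 331, 364 and 332 CPM in LN332-treated MKα3+ cells, a log2FC of -0.27 ± 0.13 (SE, limma-voom adjusted p = 0.124). Neither difference passed the test. In vehicle the log2FC values were 0.12 ± 0.09 (SE) for *Rab5a* and -0.08 ± 0.13 (SE) for *Rab5c*. Exons of *Rab5a* overlap those of *Pp2d1* on the opposite strand over 221 bases, 4.19% of its exon length, and whether counting used strand is not given in the sources used here, so its count may hold reads of that neighbour.

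Per length, the order in vehicle-treated MKα3− cells was *Rab5c* at 178 ± 31.0 CPM per kb, *Rin1* at 40.5 ± 8.93, *Rab5b* at 30.6 ± 2.24, *Rabgef1* at 18.2 ± 2.77, *Rab5a* at 10.7 ± 1.08, *Rin2* at 3.28 ± 0.400 and *Rin3* at 0.145 ± 0.0817 (SD, n = 4). *Rin1* and *Rab5b* overlapped in this order, with lowest and highest libraries at 31.9 and 48.7 CPM per kb for *Rin1* and at 27.8 and 32.9 CPM per kb for *Rab5b*. In vehicle-treated MKα3+ cells the order was the same except that *Rin3*, at 7.02 ± 0.435 CPM per kb, stood above *Rin2*, at 1.60 ± 0.173. These orders are for merged exons. By the longest coding transcript *Rab5a* was at 23.8 CPM per kb in vehicle-treated MKα3− cells and 25.9 CPM per kb in vehicle-treated MKα3+ cells. That length was not taken for *Rabgef1*, so its place relative to *Rab5a* is known for merged exons only. *Rab5c* made up 80.9% of the summed Rab5 level in vehicle-treated MKα3− cells and 82.1% in vehicle-treated MKα3+ cells, or 75.3% and 76.1% by the longest coding transcript. *Rab5a* made up 4.90% and 5.70%, or 9.09% and 10.5% by that length.

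Between the lines in LN332, 2 of the 7 genes passed the test, *Rin3* higher and *Rin2* lower in MKα3+ cells, beside 20.6% of all genes called, 11.7% as higher and 8.92% as lower. This count includes *Rin3*, which was chosen for its difference between the same lines. It is close to that share and is not a result about the family as a whole. The median log2FC was -0.12 over the 7 genes and 0.01 over all genes. The groups did not overlap for 3 of the 7 genes, beside 26.5% of all genes.

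**Figure D3:**
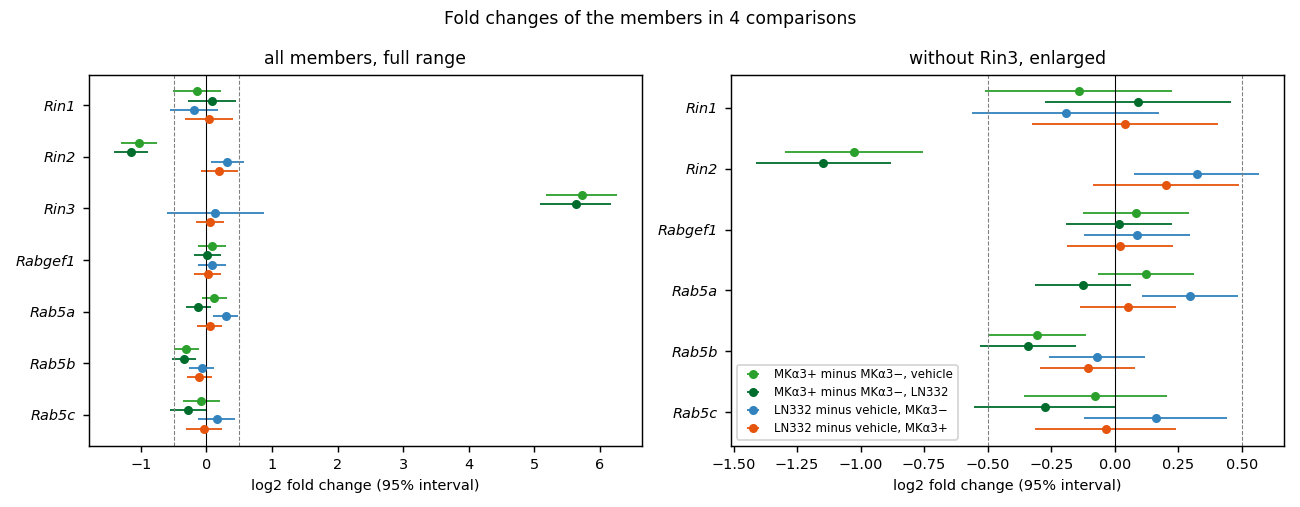
Log2FC values of the 7 genes with 95% intervals (horizontal axes) in the comparisons between the lines, in green, and between LN332 and vehicle in each line, in blue and orange, with dashed lines at the minimum of 0.5. *Rin3* lies at 5.72 and 5.63 between the lines and *Rin2* at -1.03 and -1.15, and every LN332 response lies between -0.19 and 0.32.

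The comparison of LN332 with vehicle asked whether added ligand moves these genes, with log2FC given as LN332 over vehicle. In MKα3+ cells 0 of the 7 genes passed the test in limma-voom, beside 0.187% of all genes, and 0 also with the replicate number as a block, beside 1.51%. An unadjusted p under 0.05 was found for 0 of them, beside 9.59% of all genes, and edgeR and DESeq2 each called 0. *Rin3* was at 48.0 ± 2.97 CPM in the vehicle group and 49.6 ± 2.69 CPM in the LN332 group (SD, n = 4), a log2FC of 0.05 ± 0.10 (SE, limma-voom adjusted p = 0.951) with a 95% interval from -0.17 to 0.26. *Rin2* was at 18.1 ± 1.95 and 20.8 ± 2.35 CPM, a log2FC of 0.20 ± 0.14 (SE, limma-voom adjusted p = 0.743). The intervals of all 7 genes lay within 0.5 in either direction, so a response past that minimum lay outside each gene's interval in these cells. *Rab5b* was the only member whose groups did not overlap, with vehicle libraries from 102 to 106 CPM and LN332 libraries from 94.3 to 99.3 CPM, a log2FC of -0.11 ± 0.09 (SE, limma-voom adjusted p = 0.819). A two-sided exact permutation test of *Rab5b* gave p = 0.0286, 1 of 21 such tests made on the members, and 9.66% of all genes did not overlap in this comparison. That test shuffled libraries without regard to their pairing by replicate number, so it is not a test of paired differences. The SE, intervals and adjusted p-values given here for single genes also come from the fit without the block.

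In MKα3− cells 0 of the 7 genes passed the test in limma-voom, beside 0.304% of all genes, and edgeR and DESeq2 each called 0. *Rab5a* and *Rin2*, 2 of the 7 genes, had unadjusted p-values under 0.05, beside 14% of all genes. *Rab5a* was at 56.4 ± 5.67 CPM in the vehicle group and 69.3 ± 7.42 CPM in the LN332 group, a log2FC of 0.30 ± 0.09 (SE, limma-voom adjusted p = 0.161). *Rin2* was at 36.9 ± 4.51 and 46.2 ± 6.96 CPM, a log2FC of 0.32 ± 0.12 (SE, limma-voom adjusted p = 0.237). Vehicle and LN332 libraries overlapped for all 7 genes, beside 4.95% of all genes without overlap, and two-sided exact permutation tests gave p = 0.0571 for *Rab5a* and p = 0.0857 for *Rin2*. *Rin3* stayed low, at 0.989 ± 0.558 and 1.03 ± 0.299 CPM, and its interval, from -0.60 to 0.87, was the widest of the 7 genes at these low counts.

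The difference between the lines in the LN332 response was tested as the interaction. For the 7 genes it lay between -0.25, for *Rab5a*, and 0.23, for *Rin1*, on the log2 scale, and every adjusted p from limma-voom was 0.9999. No member was called by limma-voom, edgeR or DESeq2, beside 0% of all genes, and 0 members had an unadjusted p under 0.05, beside 1.13% of all genes.

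Of the 90 other measured genes of the endocytic route, grouped by role, 7 passed the test between the lines in vehicle, beside 18.5% of all genes, and 6 passed in LN332, beside 20.6%. The median log2FC over the 90 genes was 7.56e-04 in vehicle and 8.38e-03 in LN332. Those in vehicle were 6 higher and 1 lower in MKα3+ cells, beside 10.9% and 7.56% of all genes. The genes called in both media, all higher in MKα3+ cells, were *Rab11fip1*, *Dnm1*, *Chml* and *Bin1*. *Rab11fip1*, an effector of the recycling GTPase Rab11, was at 31.9 ± 3.36 CPM in vehicle-treated MKα3− cells and 89.4 ± 16.5 CPM in vehicle-treated MKα3+ cells (SD, n = 4), a log2FC of 1.48 ± 0.13 (SE, limma-voom adjusted p = 1.30e-07). *Dnm1*, a dynamin that cuts clathrin-coated vesicles from the membrane and is best known from neurons, was at 5.32 ± 1.07 and 14.0 ± 1.05 CPM, a log2FC of 1.42 ± 0.22 (SE, limma-voom adjusted p = 9.48e-05). *Chml*, a Rab escort protein, had a log2FC of 0.74 ± 0.20 (SE, limma-voom adjusted p = 0.0104).

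Among the partners of Rin proteins, *Bin1* passed in both media and *Cd2ap* in vehicle. *Bin1* encodes a membrane-bending protein that binds Rin2 and Rin3, and was at 73.7 ± 4.03 CPM in vehicle-treated MKα3− cells and 109 ± 3.37 CPM in vehicle-treated MKα3+ cells, with a log2FC of 0.57 ± 0.08 (SE, limma-voom adjusted p = 3.02e-05) and of 0.75 ± 0.08 (SE, limma-voom adjusted p = 1.31e-06) in LN332. *Cd2ap*, an adaptor that binds Rin3, had log2FC values of 0.50 ± 0.08 (SE, limma-voom adjusted p = 2.37e-04) and 0.43 in the 2 media. Its vehicle value lay just under the minimum of 0.5 in 5 alternative fits, between 0.487 and 0.499, and between 0.462 and 0.495 without replicate 3 of vehicle-treated MKα3− cells, replicate 2 or 4 of vehicle-treated MKα3+ cells or any LN332-treated library. *Hras*, *Nras* and the Abl kinase genes *Abl1* and *Abl2* were not called in either medium.

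Of the other Rab5 regulators, 5 further VPS9 genes (*Rinl*, *Als2cl*, *Gapvd1*, *Ankrd27* and *Vps9d1*) had log2FC values from -0.27 to 0.02 in vehicle and from -0.29 to 0.28 in LN332, and 0 were called. Of 2 genes for Rab5 GTPase-activating proteins, *Usp6nl* was higher in LN332-treated MKα3+ cells (log2FC 0.54 ± 0.13 SE, limma-voom adjusted p = 0.00306) and was at 0.496 in vehicle, so close to the minimum that 4 of the 16 fits without a library put it past. Without replicate 1 of LN332-treated MKα3− cells or replicate 2 of LN332-treated MKα3+ cells its value in LN332 was 0.41 or 0.49, also under the minimum. Of the 4 GTPases closest to Rab5, *Rab17* was lower in vehicle-treated MKα3+ cells (log2FC -2.70 ± 0.85 SE, limma-voom adjusted p = 0.0241), with 3 to 12 counts per library in those cells and 16 to 122 in vehicle-treated MKα3− cells. The call for *Rab17* was lost without vehicle-treated MKα3+ replicate 2, 3 or 4, with adjusted p-values of 0.0597, 0.0617 and 0.0726 from limma-voom. In LN332 *Rab17* was called only with the replicate block (log2FC -1.61, adjusted p = 0.00174) or sample quality weights (log2FC -1.68, adjusted p = 0.041), against -1.49 and an adjusted p of 0.198 without them. *Rab21*, *Rab22a* and *Rab31* were not called.

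The 3 gene groups downstream of Rab5 held 0 calls in either medium, beside 18.5% of all genes in vehicle and 20.6% in LN332. The 11 genes of Rab5 effectors and early endosome tethers, *Eea1* and *Rabep1* among them, had log2FC values from -0.21 to 0.39 in vehicle and from -0.14 to 0.42 in LN332. The 5 genes of the Vps34 lipid kinase complex lay between -0.25 and 0.22 in vehicle and between -0.24 and 0.30 in LN332, and the 10 genes of the CORVET tether and the switch to Rab7 between -0.26 and 0.12 and between -0.20 and 0.18. In edgeR and DESeq2 these groups also held 0 calls in both media. *Rabep1*, the gene of Rabaptin-5, had a log2FC of 0.42 in LN332 (limma-voom adjusted p = 0.0191), under the minimum, and passed it at 0.51 without replicate 4 of LN332-treated MKα3− cells and at 0.53 without replicate 1 of LN332-treated MKα3+ cells. Besides the genes above, *Dab2*, a clathrin adaptor, was higher in vehicle-treated MKα3+ cells (log2FC 0.58 ± 0.13 SE, limma-voom adjusted p = 0.00231), and *Rab4b*, a GTPase of fast recycling, was lower in LN332-treated MKα3+ cells (log2FC -0.55 ± 0.08 SE, limma-voom adjusted p = 8.52e-05). Without replicate 4 of LN332-treated MKα3− cells *Rab4b* was at -0.498, short of the minimum.

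In response to LN332, 0 of the 90 genes passed the test in limma-voom in either line, beside 0.187% of all genes in MKα3+ and 0.304% in MKα3− cells, and edgeR and DESeq2 each called 0. An unadjusted p under 0.05 was found for 9 of the 90 genes in MKα3+ and 14 in MKα3− cells, close to the 9.59% and 14% of all genes. The fit with a replicate block gave each replicate number a shared effect over all 16 libraries of both lines. In that fit *Dnm1* and *Fcho1* were called as lower with LN332 in MKα3+ cells, beside 1.51% of all genes. *Fcho1* was also called in MKα3− cells, beside 1.79%, although same-numbered libraries there did not all deviate together (correlation -0.012 for replicate 4). *Dnm1* was at 14.0 ± 1.05 CPM in vehicle-treated and 8.38 ± 1.76 CPM in LN332-treated MKα3+ cells, with no overlap between the groups, and its log2FC was -0.73 ± 0.18 (SE, limma-voom adjusted p = 0.0398) with the block and -0.76 ± 0.20 (SE, limma-voom adjusted p = 0.147) without it. *Fcho1*, which encodes a protein that starts clathrin-coated pits, was at 9.55 ± 1.27 and 6.13 ± 1.68 CPM in MKα3+ cells, and its limma-voom adjusted p was 0.0479 with the block and 0.326 without it.

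Genes next to *Rin3* on the chromosome differed far less between the lines. The 3 measured genes on either side, *Gm20036*, *Atxn3*, *Cpsf2*, *Lgmn*, *Golga5* and *Itpk1*, had log2FC values from -0.25 to 0.40 in vehicle. The nearest, *Lgmn*, a gene for a lysosomal protease that lies 3.2 kb from *Rin3*, was higher in LN332-treated MKα3+ cells (log2FC 0.58 ± 0.16 SE, limma-voom adjusted p = 0.00843), and was at 0.40 ± 0.16 (SE, limma-voom adjusted p = 0.0647) in vehicle. The 6 measured genes around *Rin2* lay between 0.12 and 0.63 in vehicle, and of these *Ralgapa2* was called, higher in MKα3+ cells in both media.

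**Figure D4:**
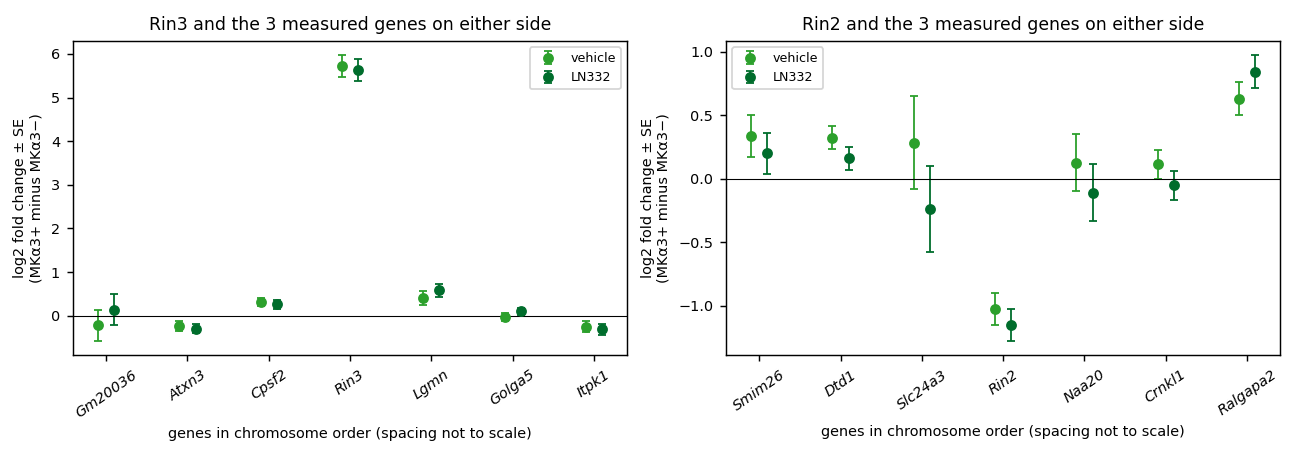
Log2FC between the lines ± SE (vertical axes) of *Rin3*, left, and *Rin2*, right, with the 3 measured genes on either side in chromosome order, in vehicle and in LN332. *Rin3* stands at 5.72 and 5.63 beside neighbours at or below 0.58, and *Rin2* at -1.03 and -1.15 beside neighbours at or above -0.24.

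Over the 16 libraries, the genes whose log2 level followed that of *Rin3* most closely were *Crmp1*, *Prickle1* and *Slain1*, with Pearson correlations of 0.996, 0.996 and 0.995. The 8 libraries of each line share their line, so this measure mostly ranks genes by how cleanly they separate the lines. *Crmp1*, a gene of semaphorin signalling, was at 1.74 ± 0.854 CPM in vehicle-treated MKα3− cells and 62.7 ± 4.00 CPM in vehicle-treated MKα3+ cells (SD, n = 4). Of the other members *Rabgef1* had the highest correlation with *Rin3*, at 0.166, but ranked only 6167 of 14473 genes, and *Rin2* had the lowest, at -0.918. For deviations from the group means, the correlation with *Rin3* was -0.349 for *Rabgef1* and 0.189 for *Rin2*.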

How the data were processed

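RNA of 16 libraries of MKα3− and MKα3+ cells was analysed. The authors aligned reads to mm10 (Rsubread) and used featureCounts with its Entrez gene models to obtain raw counts, which were deposited unnormalized. The strand setting is not given in the sources used here. The filter of the methods, more than 0.5 CPM in at least 3 libraries, removed 0 of 14474 genes. TMM factors (edgeR 4.0.16) were applied and counts were tested with limma-voom (limma 3.58.1, R 4.3.3) in a single fit of all 16 libraries with a mean for each group. A gene was called at an adjusted p under 0.05 (Benjamini-Hochberg over all genes) with an absolute log2 fold change over 0.5. Every adjusted p is limma-voom's. CPM were scaled with the TMM factors, and exact permutation tests compare CPM of 4 libraries against 4, two-sided and unpaired.

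Total counts of 21735708 to 29338370 set the precision, and no replicate pair agreed within sampling noise (smallest chi-square per degree of freedom 5.45). Lengths are merged GENCODE exons, known for 91.2% of genes, and positions and promoter sequences come from RefSeq (GRCm38.p6, with 97.2% of genes matched and promoters of all 7 members). The authors' annotation may give other lengths. Same-numbered vehicle and LN332 libraries of MKα3+ cells deviated together from their group means (correlations 0.620, 0.474, 0.202 and 0.580), so the replicate number is taken to pair them. In the other comparisons at least 1 of 4 pairs was at or under 0.1. Beside the members, the genes named are the other VPS9, GTPase-activating and Rab5-like genes, every listed gene called, the 3 neighbours on either side of *Rin3* and *Rin2*, and the 3 genes most like *Rin3*. *Eea1*, *Rabep1*, *Fcho1*, *Hras*, *Nras*, *Abl1* and *Abl2* were named after their values were seen. The members and lists were chosen with earlier results of these data known. Some listed genes are not reported here by name. The procedure was tested on simulated data. Other fits used edgeR (quasi-likelihood), DESeq2 1.42.0, other normalizations, filters and weights, the replicate block, only the groups compared, and each library left out in turn. The longest coding transcript as gene length was added after the data were seen.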

Additional observations from a re-analysis of the deposited data

Results flagged for a closer look

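In 104 groups of 4 libraries (26 genes in 4 groups), 6 had 1 library far from the other 3 by Dixon's criterion, against 5.2 expected by chance, and 0 of the 28 groups of the 7 members did. Replicate 1 of vehicle-treated MKα3− cells had *Rinl* at 7.16 CPM (others 2.48 to 3.15), and replicate 1 of LN332-treated MKα3− cells had it at 8.07 CPM (others 1.71 to 2.19). The latter library had *Usp6nl* at 72.6 CPM (others 102.5 to 106.8). *Rab17* was at 0.437 CPM (others 0.108 to 0.160) and *Rab11fip1* at 114 CPM (others 80.0 to 82.0) in vehicle-treated MKα3+ replicate 1. Replicate 2 of the same group had *Dnm1* at 15.6 CPM (others 13.4 to 13.6). Replicate 1 is the library in 5 of the 6 groups, and no cause was tested.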

How the results depend on the processing

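The calls of *Rin3* and *Rin2* between the lines in LN332 held under every alternative run, with log2 fold changes of 5.59 to 5.90 and -1.16 to -1.13. With a library left out they were 5.40 to 5.78 and -1.22 to -1.06. The number of members called was 2 in that comparison and 0 in both LN332 responses and in the interaction in every alternative, leaving out each library included. Of the 90 other genes, the number called in the LN332 response of MKα3+ cells was 0, but 2 with the replicate block, 2 with sample quality weights and 1 with only the groups compared. In MKα3− cells it was 0, but 1 with the replicate block, and 0 to 1 with a library left out (1, *Fcho1*, without LN332-treated MKα3− replicate 1). The replicate block changed no call of a member. With it the LN332 response of *Rin2* in MKα3− cells, 0.32 in both fits, had a limma-voom adjusted p of 0.0327 (0.165 to 0.591 in the other alternatives without leaving out libraries), under the minimum of 0.5, and that of *Rab5a* an adjusted p of 0.0619. Same-numbered libraries of all 4 groups carry a common prefix in their labels. Their deviations from group means correlated at 0.255 on average, against -0.0796 for libraries of other numbers. Of the 24 same-numbered pairs 18 were over 0.1, and 14 of 16 libraries correlated best with libraries of their own number. The tests without the block do not account for this shared structure. Values near 0 changed sign. With library size alone the LN332 response in MKα3+ cells was -0.036 for *Rin1*, -0.028 for *Rin3*, -0.059 for *Rabgef1* and -0.027 for *Rab5a*. With sample quality weights that of *Rin3* in MKα3− cells was -0.18 and its interaction 0.22, and the interaction of *Rin3* was 0.0064 with edgeR and 0.012 with DESeq2. The cause was not tested. With a library left out, the difference between the lines in LN332 ranged from -0.037 to 0.27 for *Rin1* and from -0.049 to 0.069 for *Rabgef1*. The LN332 response ranged from -0.016 to 0.13 for *Rin1*, from -0.0072 to 0.037 for *Rabgef1* and from -0.10 to 0.016 for *Rab5c* in MKα3+ cells, and from -0.078 to 0.47 for *Rin3* and from -0.12 to 0.022 for *Rab5b* in MKα3− cells. The interaction ranged from -0.42 to 0.13 for *Rin3* and from -0.13 to 0.0084 for *Rab5b*. The number of all genes called in the LN332 response was 27 in MKα3+ and 44 in MKα3− cells, 218 and 259 with the replicate block, and ran from 3 to 454 and from 1 to 259 over the alternatives and from 0 to 47 and from 1 to 150 with a library left out, so the shares of all genes given for these comparisons depend on the processing. Depth limits *Rin3* in MKα3− cells, with 16 to 52 counts per library.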
